A study of Homo sapiens with 29 samples.

Results

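In 22Rv1, an established line of human prostate cancer cells, the peaks that the authors called in 29 ATAC-seq libraries merged into 166696 regions, of which 35901 had a peak in every library. Described here are the 5592 of these shared regions whose merged width was 500 bp or less, 15.6% of the regions held by all libraries and 4.82% of the 115984 merged regions of that width. The other 30309 shared regions were wider and serve for comparison. The members were thus selected on the presence of a peak in all 29 lists and on the width of the merged interval, and neither of these is a finding. All positions are in build hg19, as the deposited lists give them.

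ATAC-seq uses a transposase that cuts accessible DNA, so that a peak marks a place where the chromatin is open. In a given cell type a core set of sites tends to be accessible whatever the treatment, and promoters and sites bound by the insulator protein CTCF are known to be common in such a set. FOXA1 is a pioneer transcription factor that binds and opens enhancers in prostate cells. No annotation of build hg19 was used here, so the regions are given by position alone and the share of promoters or of factor sites among them was not analysed here.

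There were 15 libraries from parental cells, 3 for each of 5 treatments: DMSO (0.1%), WX-02-23 (20 µM), WX-02-43, which is a stereoisomer of it (20 µM), and pladienolide B (PladB), which binds SF3B1 of the spliceosome, at 10 nM and at 100 nM. The other 14 came from engineered cells, 2 for each of 7 groups. The engineered cells overexpressed the Y36C form of PHF5A, a partner of SF3B1, and carried WT-FOXA1 or C258A-FOXA1 under a doxycycline (Dox)-inducible promoter; the C258A form lacks the cysteine of FOXA1 that WX-02-23 is known to engage. Both engineered lines received Dox with DMSO, with WX-02-23 (20 µM) or with PladB (100 nM), and the WT-FOXA1 line was also kept without Dox in DMSO. Treatments lasted 3 h. The labels do not say how long Dox was given or whether replicates came from separate cultures, so that p-values measure only the spread between these libraries, which may be technical. The endogenous FOXA1 gene is not said to have been removed from the engineered cells. Peak names in the parental and in the engineered lists carry different folder names, so that cell line and processing folder cannot be told apart, and no test was run between parental and engineered cells.

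The lists held 82538 to 98193 peaks in parental and 62832 to 92658 in engineered libraries. The background under the peaks, read from the even steps of the authors' fold values and used as a relative depth, ranged from 0.546 to 1.502 reads. The WT-FOXA1 line had the 4 shortest lists, with 67815 and 62832 peaks after WX-02-23 and 69814 and 67195 without Dox, against 88140 and 85009 in its DMSO libraries with Dox. After WX-02-23 its members also had the lowest median folds of all libraries, 6.91 and 6.28. In the narrow members the number of reads at the summit could be recovered from the fold and the p-value of each peak, with 99.8% to 100% of values whole in each library (tolerance 0.02 reads), and its median was 18 to 33 reads per library.

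The narrow shared regions were single, compact peaks. The width rule bounds their width and leaves little room for more than 1 peak, so these values and the contrast with wider regions are a description. Their merged width had a median of 416 bp and ran from 209 to 500 bp, while the peak of a single library had a median width of 262 to 325 bp. In 5543 of the 5592 every library had exactly 1 peak, and 49 had more than 1 peak in some library, against 55.5% of the wider shared regions. The stretch common to all 29 peaks had a median of 181 bp and reached at least 150 bp in 3859 members. In 17 members no base lay in all 29 peaks, because the merged region was chained from peaks that overlapped only in part.

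Across the edge of the width rule the summit SD changed little, while the percentile was higher outside it. The 1461 members of 401 to 450 bp had a median mean percentile of 35.0 and a median summit SD of 32.0 bp. These were 35.9 and 31.4 bp in the 1781 members of 451 to 500 bp. The 2317 shared regions of 501 to 550 bp, just outside the rule, had 41.5 and 32.5 bp. The percentile is the rank of a region's fold enrichment over local background in a library, from 0 for the lowest to 100 for the highest of the 35901 shared regions, and the mean is taken over the 12 groups. Lower in the width range, the 110 members of 300 bp or less had a median mean percentile of 6.07 and a summit SD of 17.2 bp.

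Many narrow regions missed the set through 1 library. Of the regions of 500 bp or less, 1977 were held by 28 of the 29 libraries, and in 1642 of these (83.1%) the missing library was an engineered one. Replicates 2 and 1 of WX-02-23 in the WT-FOXA1 line were the missing library for 599 and 294 of them, the highest numbers of any library. On parental libraries alone 15211 narrow regions would have been shared, and on engineered libraries alone 13633. Regions held by all 15 parental libraries and by no engineered one numbered 589, and the reverse 81. Whether those absences reflect the cells or the depth of the lists was not tested.

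The position of the summit agreed closely between libraries. The SD of the summit over the 29 libraries had a median of 30.0 bp in the members (10% of members lay under 17.2 bp and 10% over 44.99 bp) and 34.3 bp in the wider regions; the width rule bounds this spread, so the difference is a description. All 29 summits lay within 100 bp of the region's median summit in 4577 members (81.8%) and in 58.4% of the wider regions. Within 50 bp the share fell to 13.8% in the members and 12.9% in the wider regions. Of single summits in members, 65.3% lay within 25 bp of the median. The median summit itself sat within 50 bp of the centre of the merged region in 78.6% of members.

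**Figure D1:**
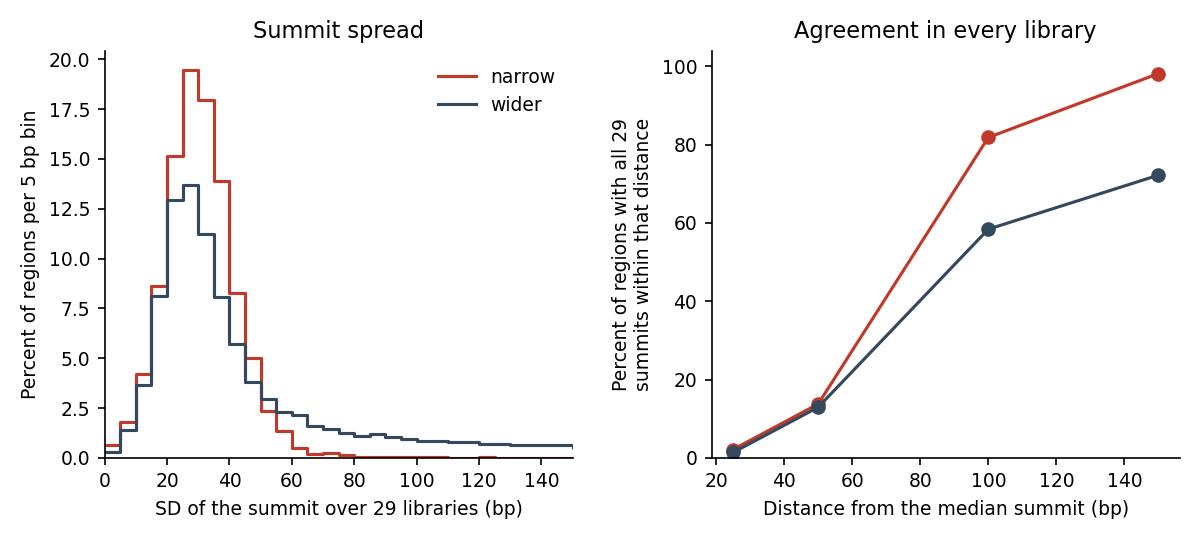
Left, the SD of the peak summit over 29 libraries (x axis, bp) against the percent of regions in each 5 bp bin, for narrow shared regions (red) and wider shared regions (dark blue). Right, the percent of regions whose 29 summits all lie within a given distance (x axis, bp) of the median summit; at 100 bp the narrow regions reach 81.8% and the wider regions 58.4%.

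In parental and in engineered cells alike, the mean distance between summits differed between replicates and differently treated libraries by less than its SD over pairs. Between 2 libraries of the same parental group the mean distance of summits was 32.2 ± 1.26 bp (SD over 15 pairs), and between libraries of different parental groups it was 32.4 ± 1.04 bp (90 pairs). The corresponding values in engineered libraries were 34.0 ± 1.73 bp (7 pairs) and 33.9 ± 1.33 bp (84 pairs). Parental DMSO to parental WX-02-23 libraries gave 32.2 ± 1.13 bp (9 pairs), against 32.5 ± 0.518 bp within DMSO and 31.3 ± 0.640 bp within WX-02-23 (3 pairs each). Pairs share libraries, and no test was made of them. The largest distance within a group, 36.9 bp, was that of the WX-02-23 pair in the WT-FOXA1 line. Between the mean summits of parental and engineered libraries the difference had a median of 8.20 bp, passed 20 bp in 817 members (14.6%) and passed 50 bp in 31.

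The tightest summits lay on chromosome 1. At chr1:147624399-147624703 all 29 summits fell within 4 bp (SD 1.16 bp), and at chr1:147553530-147553807 they fell within 7 bp (SD 1.49 bp). These neighbours are each other's nearest shared region, 70591 bp apart. The third, chr9:15232956-15233228, had a range of 8 bp and an SD of 1.55 bp. Their height varied far more than their position: the percentile of the first ran from 28.1 to 97.6 over the libraries, with a median of 78.4, and that of the second from 9.58 to 58.8.

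The 3 members with the widest summit spread had low ranks, but over all members the spread did not follow the rank. With the members divided by mean percentile into 4 equal sets, the median summit SD was 29.7, 31.2, 30.8 and 28.6 bp, from lowest to highest. At chr15:64443497-64443975 the summits spanned 293 bp (SD 121 bp), at chr7:89787145-89787616 265 bp (SD 106 bp) and at chr6:44042121-44042549 309 bp (SD 105 bp). In the last 2 no base was common to all 29 peaks. Their median percentiles were 2.36, 4.47 and 1.99, and in every library all of them stayed below percentile 14, the highest value being 13.2. The narrowest member, chr1:77436977-77437185, spanned 209 bp with an SD of 7.21 bp; chr12:56513230-56513470 spanned 241 bp with 11.9 bp, and chr1:248567397-248567646 spanned 250 bp with 8.21 bp. Of these the chromosome 12 region was low in all libraries (percentile 0.0933 to 1.47), while the other two had median percentiles of 67.0 and 58.3.

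By fold the narrow regions ranked low among the shared regions. In parental libraries their median percentile was 28.6 ± 0.925 in DMSO, 30.5 ± 2.20 with WX-02-23, 29.3 ± 1.98 with WX-02-43, 30.4 ± 1.71 with PladB at 10 nM and 28.9 ± 0.775 at 100 nM (mean ± SD, n = 3 each). In the WT-FOXA1 line it was 27.0 ± 0.504 without Dox, 27.8 ± 0.196 with Dox, 24.5 ± 0.450 with WX-02-23 and 26.8 ± 1.34 with PladB, and in the C258A-FOXA1 line 28.5 ± 0.303, 27.7 ± 1.61 and 27.7 ± 0.357 in the same order from DMSO on (n = 2 each). The lowest value of all 29 was 24.2 and the highest 32.6, and the wider regions held 52.8 to 55.7. Within each library's whole list, where unshared peaks count too, the members were not low: their median percentile there was 46.7 to 67.3.

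**Figure D2:**
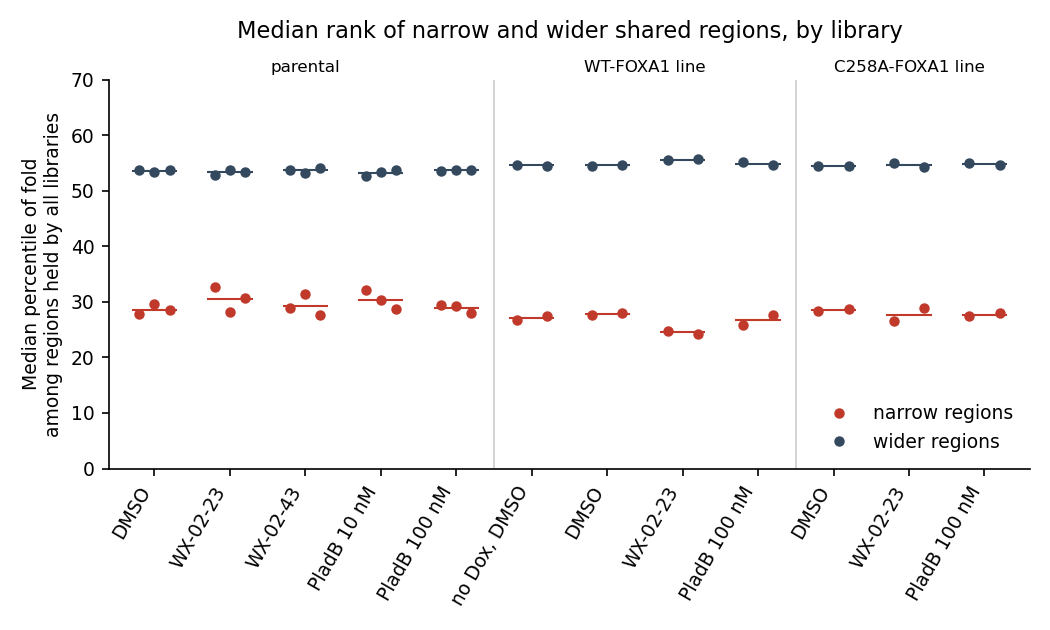
Median percentile of fold among the 35901 regions held by all libraries (y axis), for narrow (red) and wider (dark blue) regions; each point is 1 library, each line a group mean, and columns are treatments within the 3 kinds of cell. Narrow regions sit between 24.2 and 32.6 and wider regions between 52.8 and 55.7, and the lowest red points are those of WX-02-23 in the WT-FOXA1 line.

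Single members covered the whole range. A mean percentile over 90 was reached by 56 members and one over 99 by 4, while 866 stayed under 10. In all 29 libraries 1912 members lay below percentile 50 and 188 lay above it. The highest were chr14:88237477-88237915 and chrX:136520320-136520693, both with a mean percentile of 99.997 and at percentile 99.99 or above in every library, followed by chr16:32199365-32199706 (lowest 96.5, median 99.9). Their folds had medians of 27.1, 27.1 and 20.8. The ranks of the first pair sit at the ceiling of the scale and say little on how steady their height is: their folds ran from 22.5 to 28.8 and from 24.04 to 29.5, and those of the third from 16.4 to 24.6. The member with the lowest rank, chr2:133030467-133030789, lay at percentile 0.00139 to 0.00696, next to chr11:118796581-118796882 (0.00696 to 0.227) and chr11:69455761-69456111 (0.00696 to 0.196). Its fold was 1.93 to 2.53.

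Members in mid-range moved more. Over the 29 libraries the percentile of a member ranged over a median of 50.8 points, and the SD within groups had a median of 10.8 points, against 8.43 in the wider regions. Among members with a mean percentile of 25 to 75 the steadiest were chr7:69245331-69245778 (46.9 to 73.5), chr13:74864490-74864927 (41.7 to 70.7) and chr17:48611628-48612021 (14.8 to 44.4). Even in these the span was 26.6 to 29.6 points, so that a change of that size in 1 library is within what the most stable mid-range members show.

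Within the members a low rank did not mean few reads. As a class, however, the members had fewer reads than the wider regions, with a median of 25 summit reads against 43. Ranked by summit reads among the shared regions, their median percentile was 20.5 to 26.9 per library. When the members were divided by mean percentile into 4 sets of 1398, the lowest set had a median of 33 summit reads and the highest 28, with 20 and 21 in between. The lowest set stood apart by its local background, with a median of 5.06 reads against 1.61, 1.28 and 1.34 in the sets above it. Over these upper 3 the background did not fall steadily, and the reads were highest in the last. The fold divides the summit by that background, and both values come from the same 2 columns. The lowest member on chromosome 2 had 86 summit reads in the median library over a background of 38.4, while the highest, on chromosome 14, had 96 over 2.62.

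The same 4 sets differed in their surroundings. Members of the lowest set lay a median of 1851 bp from the next region held by all libraries, those of the second 12946 bp, of the third 20112 bp and of the highest 24692 bp. To the nearest merged region of any kind the medians were 854, 2428, 4008 and 5728 bp. Narrow peaks of low fold thus lay closer to other open regions than those of high fold. Over all members the median distance to another shared region was 12217 bp, against 17636 bp for wider regions, and to any merged region 2590 against 5051 bp. A shared neighbour within 1 kb was present for 13.2% of members and for 6.72% of wider regions. Distances use the edges of merged regions, and close peaks that merge become 1 wide region, which the width rule leaves out.

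Members seldom followed one another. The nearest other member was a median of 104298 bp away, and along the ordered shared regions 3927 members stood alone between wider regions. Another 646 runs held 2 members in a row, 96 held 3, 15 held 4 and 5 held 5. Runs of 5 included chr2:79750485-80531983, chr2:98313742-98423580 and chr9:129276462-129544410.

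By chromosome the members followed the shared regions as a whole. The density was 1.86 members per Mb between the first and last merged region of each chromosome. It was highest on chromosomes 19 (5.13 per Mb, 302 members), 17 (3.78 per Mb, 307 members) and 22 (3.73 per Mb, 131 members). It was lowest on Y (0.0532 per Mb, 3 members), X (0.631 per Mb, 96 members) and 4 (1.29 per Mb, 247 members). The share of narrow regions among shared regions moved much less, from 13.9% on chromosome 12 to 18.5% on chromosome 18 among the autosomes, with 11.3% on X and 7.32% on Y, where 3 of 41 were narrow. On the 3 densest chromosomes the median percentile of members was low, at 21.0, 22.6 and 20.5 for chromosomes 19, 17 and 22, against 40.6 on X and 39.3 on chromosome 18. The distances between shared regions are shortest where their density is high, and the 2 were not separated.

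**Figure D3:**
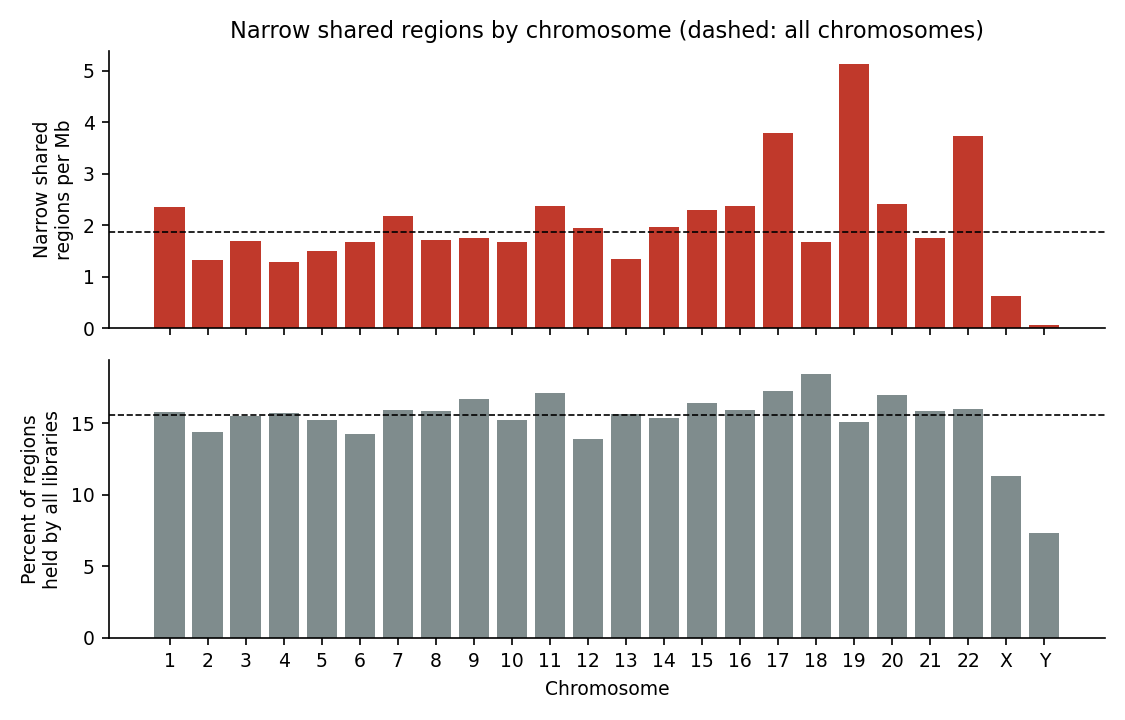
Narrow shared regions by chromosome (x axis): above, their number per Mb; below, their percent of all regions held by all 29 libraries. Dashed lines mark 1.86 per Mb and 15.6% over all chromosomes; the density varies from 0.0532 on Y to 5.13 on chromosome 19, the percent from 7.32 to 18.5.

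Rank shifts with treatment were tested with limma on the percentiles of all 35901 shared regions, in 1 fit for the 15 parental and 1 for the 14 engineered libraries, with Benjamini-Hochberg adjustment over all 35901 and a threshold of 0.05. A region is called higher or lower when it passes. The fold itself was not part of the rule that chose the members. A peak in every list was required, so a region that lost its peak with a treatment is absent and its fall is not counted. This holds for all shared regions. Ranks are also relative, so that a rise of some regions lowers others. Comparisons with the same DMSO libraries share them and are not set against each other.

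WX-02-23 shifted a small number of narrow shared regions in parental cells. Against DMSO, 30 members (0.536%) ranked higher and 15 (0.268%) lower, where 0.362% and 0.51% of all shared regions did so. The members' share was thus above that of all shared regions for rises and below it for falls; in both directions together it was 0.805%, against 0.884% of the wider regions. The change of the 30 had a median of 33.4 percentile points (5.01 to 54.1) and that of the 15 a median of -34.2 (-74.6 to -6.27), while over all members it was 0.45 points and over wider regions -0.06. The 30 lay on 15 chromosomes and the 15 on 11. An alternative chosen after seeing the data took the rank from the recovered summit reads instead of the fold. It called 146 members (2.61%) higher and 95 (1.70%) lower, with 2.79% and 3.58% of all shared regions. On that rank the members' share was below that of all shared regions in both directions. By that measure 35 of the 45 were called in the same direction and 1 changed sign. The number called by fold also hung on single libraries: it fell to 25, 18 and 22 without DMSO replicate 1, 2 and 3, and to 29 and 27 without WX-02-23 replicate 2 and 3.

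The fall with the smallest p, and the largest, was at chr2:186678440-186678844, a region of 405 bp that lies 40541 bp from any other merged region. Its percentile was 91.4, 95.3 and 90.5 in DMSO and 35.0, 13.2 and 5.42 with WX-02-23, so that the groups lay far apart. In reads, the summit fell from 33, 34 and 30 to 19, 13 and 10. WX-02-43 left it at 97.0, 99.4 and 74.4, and PladB at 79.9 to 85.3 (10 nM) and 89.0 to 95.7 (100 nM). The change with WX-02-23 was -74.6 ± 7.19 points (SE; adjusted p = 0.000217, limma, n = 3 against 3). In the WT-FOXA1 line the region went from 81.5 and 90.1 to 6.70 and 6.46 (-79.2 ± 8.47, adjusted p = 0.00341, limma), with 92.5 and 74.5 in the absence of Dox. In the C258A-FOXA1 line it went from 79.9 and 73.5 to 43.4 and 26.9, a change of -41.6 ± 8.47 that missed the threshold (adjusted p = 0.22, limma).

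Among the other regions called lower, chr16:14395836-14396239 had percentiles of 34.9, 40.3 and 32.4 in DMSO and 12.8, 6.02 and 6.54 with WX-02-23 (-27.4 ± 3.25, adjusted p = 0.00102, limma). It was low with the other agents too, at 14.3, 22.5 and 23.9 with WX-02-43 and 9.56, 14.5 and 8.42 with PladB at 100 nM, so that DMSO stood above all treated groups. At chr6:168597055-168597527 the values were 70.4, 94.2 and 71.6 in DMSO and 48.3, 25.7 and 24.3 with WX-02-23 (-46.0 ± 7.12, adjusted p = 0.00695, limma). There WX-02-43 (67.8 to 73.7) and PladB at 100 nM (79.6 to 83.1) overlapped with DMSO or lay within its range.

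The rise with the smallest p was at chr7:100250496-100250946, which was open at a low rank in DMSO (2.52, 8.91 and 5.07) and rose to 38.5, 38.4 and 47.5 with WX-02-23. Its summit held 21, 33 and 26 reads in DMSO and 61, 58 and 58 with WX-02-23. The change was 35.98 ± 3.70 points (adjusted p = 0.000352, limma). WX-02-43 gave 11.8, 10.6 and 7.10. In the WT-FOXA1 line it rose from 10.4 and 11.4 to 57.0 and 57.7 (46.4 ± 4.97, adjusted p = 0.00341, limma), and in the C258A-FOXA1 line from 3.52 and 1.31 to 41.6 and 31.4, where the change of 34.1 ± 4.97 missed the threshold (adjusted p = 0.112, limma). None of the WX-02-23 libraries overlapped with any other library at this region.

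At chr9:112237752-112238242 the percentile rose from 2.61, 3.35 and 2.12 to 13.8, 9.59 and 14.3 (9.87 ± 1.43, adjusted p = 0.00498, limma), and the reads from 25, 29 and 27 to 52, 44 and 50. In the engineered lines, WX-02-23 gave 34.8 and 53.0 (WT-FOXA1) and 42.0 and 34.4 (C258A-FOXA1), against 9.50 and 14.4, and 13.2 and 8.35, in DMSO; neither change passed (adjusted p = 0.0825 and 0.461, limma). At chr8:102647944-102648320 the rise from 11.7, 20.2 and 6.04 to 63.8, 39.3 and 55.0 (40.0 ± 5.94, adjusted p = 0.00572, limma) had no counterpart in the engineered lines, where the changes were 0.749 ± 8.12 and 0.118 ± 8.12. That region was also higher with PladB at 100 nM (42.5, 40.3 and 46.3; adjusted p = 0.0499, limma), against the same DMSO libraries.

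**Figure D4:**
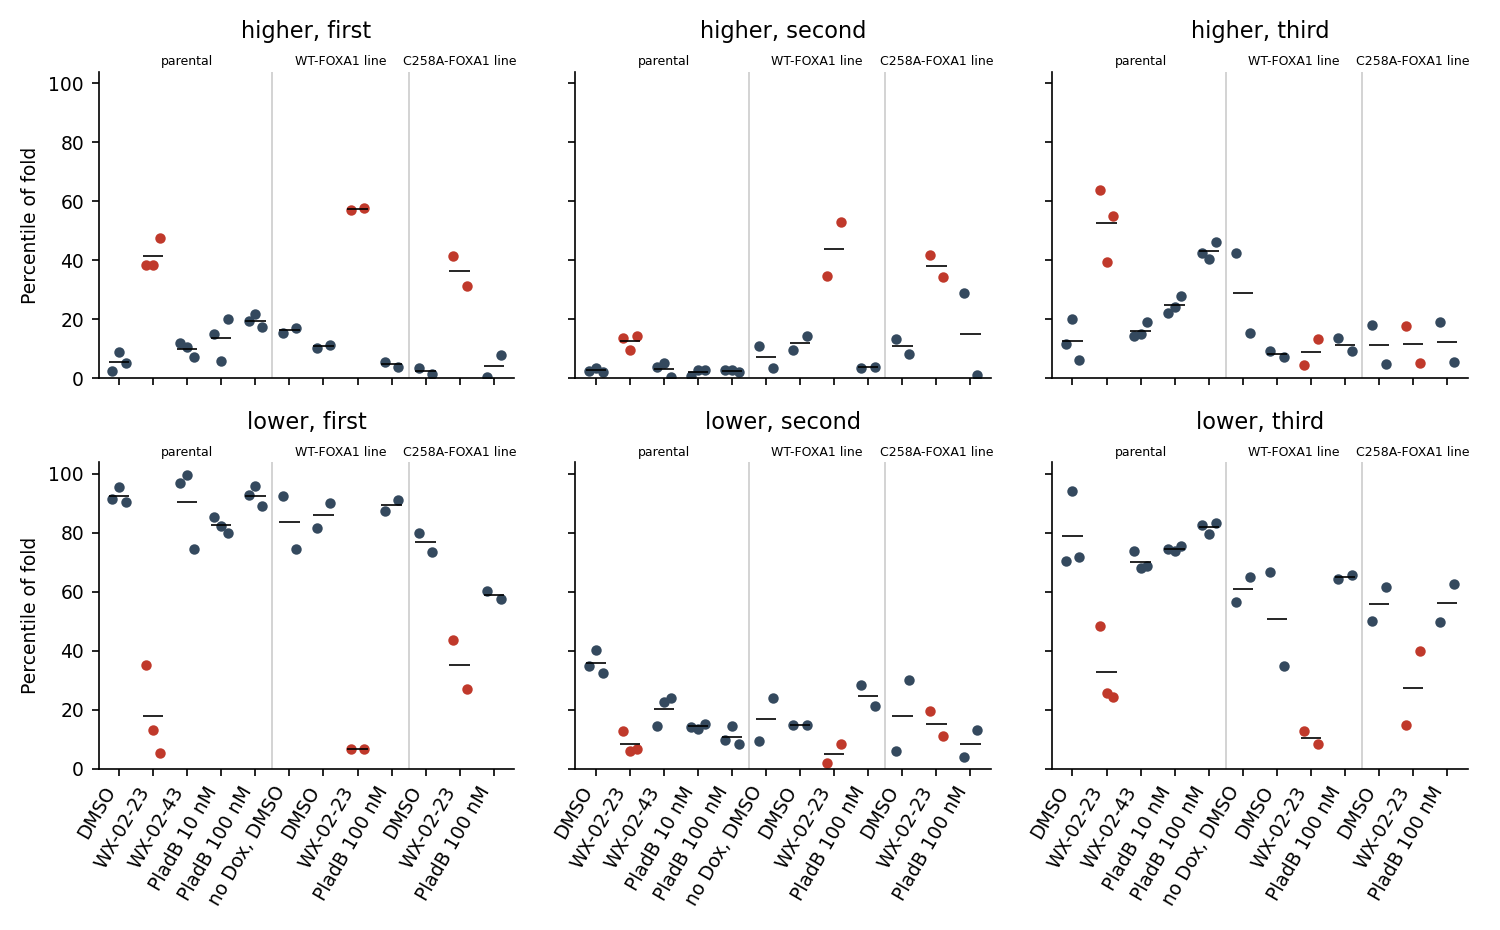
Percentile of fold (y axis) in each library for the 3 narrow regions with the smallest p among those called higher (top row) and lower (bottom row) with WX-02-23 in parental cells, in the order of p; columns are treatments, points are libraries (red, WX-02-23) and lines are group means. In the first panel of each row the red points stand apart from the other libraries of the same cells in all 3 kinds of cell, for example 38.4 to 47.5 against 2.52 to 8.91 in parental DMSO.

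The regions called in parental cells were then read in the engineered lines, whose libraries are separate. Of the 30 called higher, 24 changed upward with WT-FOXA1 (median 8.90 points, where all members had -1.39) and 27 with C258A-FOXA1 (median 14.4, all members -0.17). Of the 15 called lower, 14 changed downward in each line, by a median of -17.9 and -16.6 points. Among all members 44.3% changed upward with WT-FOXA1 and 48.8% with C258A-FOXA1. Ranks from summit reads gave 26 and 27 of the 30, and 15 and 14 of the 15. Few passed on their own: 2 of the 30 and 2 of the 15 were called in the same direction in the WT-FOXA1 line, and none in the C258A-FOXA1 line. With PladB in place of WX-02-23, 14 of the 30 changed upward with WT-FOXA1 and 18 with C258A-FOXA1, and 6 and 7 of the 15 downward. Most of these regions thus changed in the parental direction in both engineered lines. Whether the change depends on the form of FOXA1 was not tested by these signs. The regions called lower had a median mean percentile of 50.8, against 30.7 over all members, so that all members are not a baseline of equal rank.

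**Figure D5:**
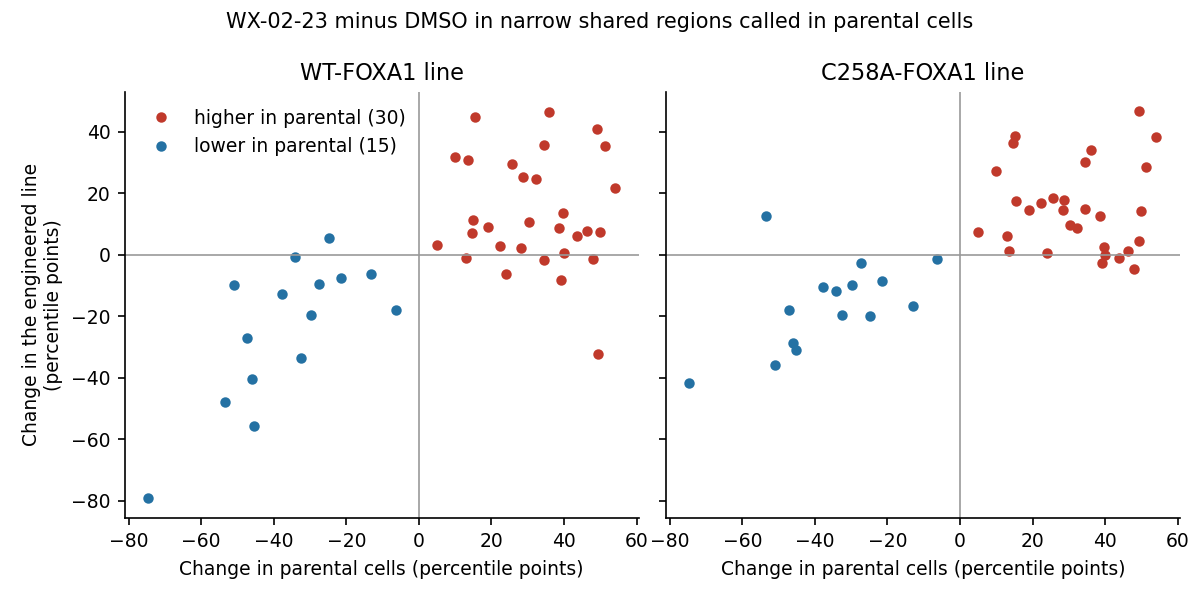
Change of percentile with WX-02-23 against DMSO in parental cells (x axis, percentile points) and in the WT-FOXA1 (left) or C258A-FOXA1 (right) line (y axis), for the 30 narrow regions called higher (red) and the 15 called lower (blue) in parental cells. In the WT-FOXA1 panel 24 of 30 red points lie above 0 and 14 of 15 blue points below it; in the C258A-FOXA1 panel 27 and 14 do. The x values chose these regions.

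The 2 stereoisomers were compared at the same dose and time. WX-02-43 against DMSO called 0 members, and 0% of all shared regions in either direction; at an unadjusted p under 0.05 there were 376 members (6.72%, against 5.85% of all shared regions), and the rank by −log10 p and the rank by summit reads called 0 as well. The smallest adjusted p among members was 0.195. WX-02-23 against WX-02-43 called 31 members (0.554%) higher and 11 (0.197%) lower, where 0.27% and 0.44% of all shared regions were called. By summit reads the split was 113 higher and 105 lower (2.32% and 2.82% of all), and by −log10 p 75 and 53 (1.17% and 1.8% of all). The count fell to 15 without WX-02-43 replicate 1 and to 25 without WX-02-43 replicate 3 or without WX-02-23 replicate 1. Over the 5592 members the median difference between the stereoisomers was 0.33 points, and 90% of members lay between -16.8 and 20.3, with a median SE of 7.67.

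The direct comparison called chr7:100250496-100250946 (31.6 ± 3.70, adjusted p = 0.00112) and chr2:186678440-186678844 (-72.4 ± 7.19, adjusted p = 0.00042) by limma as well. At chr8:66765693-66766115 the percentile was 56.4, 55.9 and 47.7 with WX-02-23 and 10.4, 7.22 and 4.32 with WX-02-43, on either side of DMSO at 33.0, 16.5 and 19.8 (46.0 ± 5.71, adjusted p = 0.00163, limma). At chr4:6209317-6209806 the values were 40.1, 68.3 and 46.5 against 17.1, 15.3 and 8.48 (38.0 ± 5.55, adjusted p = 0.00496, limma), with DMSO at 14.6 to 18.4. In the other direction chr15:56210063-56210501 had 20.3, 26.6 and 22.8 against 89.3, 90.5 and 86.8 (-65.7 ± 9.41, adjusted p = 0.00473, limma). At chr8:25472301-25472713 the values were 24.2, 27.3 and 47.4 against 84.9, 84.3 and 90.8 (-53.7 ± 8.12, adjusted p = 0.00618, limma). In each of these 6 regions the 3 values with WX-02-23 did not overlap with the 3 with WX-02-43.

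PladB shifted the rank of 1 narrow region at 10 nM and of 16 at 100 nM. At 10 nM limma called 1 member higher (0.0179% of members, against 0.00836% of all shared regions) and 0 lower (0% of all). At an unadjusted p under 0.05 it found 480 members (8.58%, against 6.85% of all). By summit reads 8 members were called higher and 3 lower (0.0724% and 0.078% of all). The region called by fold was chr9:137990261-137990650, at 11.1, 11.9 and 15.4 in DMSO and 54.8, 51.1 and 43.6 with PladB (37.1 ± 4.93, adjusted p = 0.0296, limma; 0.0981 by summit reads). It missed the threshold without any single DMSO library and without PladB replicate 1 or 2, where 1 other member passed without replicate 2, and without PladB replicate 3 the comparison called 3 members. With 100 nM PladB the same region changed by 21.5 ± 4.93 points in parental cells (adjusted p = 0.0813, limma). Its changes with PladB were -37.0 ± 8.82 with WT-FOXA1 and -12.0 ± 8.82 with C258A-FOXA1 (adjusted p = 0.882 and 0.849, limma). At 100 nM 9 members (0.161%) ranked higher and 7 (0.125%) lower, where 0.139% and 0.159% of all shared regions did. At an unadjusted p under 0.05 there were 718 members (12.8%, as of all shared regions). By summit reads these were 27 and 14 (0.318% and 0.688% of all), and by −log10 p 10 and 3 (0.0836% and 0.209% of all). Normal scores gave 7 and 9 (0.078% and 0.15% of all), and ranks among the 54404 regions shared by the parental libraries alone gave 10 and 3 (0.0827% and 0.114% of those). Without DMSO replicate 1, 2 or 3 the total of 16 became 0, 4 and 1, and without PladB replicate 2 or 3 it became 5 and 8, so that this count rests on single libraries.

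Of the 9 members called higher with 100 nM PladB, the 3 with the smallest p started from low percentiles. At chr7:156815475-156815784 the values were 13.5, 12.3 and 8.70 in DMSO and 22.1, 32.5 and 34.9 with PladB (18.3 ± 2.95, adjusted p = 0.0344, limma). Its summit held 37, 43 and 34 reads in DMSO and 39, 39 and 38 with PladB, over a local background of 4.45, 5.34 and 4.59 and of 3.92, 3.44 and 3.30 reads. The PladB libraries were shallower, with a median of 24, 23 and 22 summit reads over all members against 26, 29 and 27 in DMSO, so that read numbers are not on one scale. At chr22:25387861-25388198 the values were 6.89, 10.4 and 5.18 against 26.9, 17.3 and 30.9 (17.5 ± 2.84, adjusted p = 0.0344, limma), and at chr14:105195627-105195954 1.08, 3.70 and 1.45 against 11.03, 10.98 and 9.82 (8.53 ± 1.44, adjusted p = 0.0352, limma). All 3 missed the threshold by summit reads (adjusted p = 0.12, 0.154 and 0.593, limma).

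Among those called lower, chr16:14395836-14396239 changed by -25.0 ± 3.25 points (adjusted p = 0.0165, limma) and kept its call by summit reads. At chr4:142413356-142413811 the percentile was 82.4, 82.8 and 85.4 in DMSO, 72.0, 58.3 and 58.7 with PladB at 10 nM and 44.2, 49.2 and 40.8 at 100 nM (-38.8 ± 5.58, adjusted p = 0.0187, limma). The 3 groups did not overlap, and the 10 nM libraries lay between the others. At chr5:125800501-125800989 DMSO had 82.5, 86.4 and 63.6 and 100 nM PladB 35.9, 26.8 and 16.3 (-51.2 ± 9.21, adjusted p = 0.0369, limma), while 10 nM gave 62.5 to 86.3. By summit reads these 2 missed the threshold (adjusted p = 0.0701 and 0.0794, limma). WX-02-23 lowered the last region as well, to 24.7, 26.6 and 39.5 (adjusted p = 0.0286, limma).

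In the engineered lines PladB called no member in either: 0% of all shared regions passed limma in each direction with WT-FOXA1 and 0% with C258A-FOXA1. At an unadjusted p under 0.05 there were 325 members (5.81%, against 4.83% of all) and 434 (7.76%, against 6.62% of all), and ranks by −log10 p or by summit reads called 0 in both. These cells carry Y36C-PHF5A, and the comparison of their PladB change with that of parental cells was not tested. Of the 9 members called higher in parental cells at 100 nM, 7 changed upward with WT-FOXA1 and 4 with C258A-FOXA1, and of the 7 called lower 4 changed downward in each, with medians between -3.34 and 1.40 points.

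With WX-02-23 in the WT-FOXA1 line 40 members (0.715%) ranked higher and 32 (0.572%) lower, where 0.596% and 0.66% of all shared regions did. The members called higher were low-ranking ones, with a median mean percentile of 9.51 and a median distance of 1910 bp to the next shared region. Those called lower had a median mean percentile of 68.8 and lay 25956 bp from the next shared region. All members together had 30.7 and 12217 bp. On normal scores, which spread out the ends of the scale, the split was 4 higher and 27 lower (0.0669% and 0.37% of all). Both treated libraries had short lists and low folds: the median fold of members was 6.60 ± 0.444 against 8.63 ± 0.0315 in DMSO (n = 2 each). By summit reads 30 members were called higher and 21 lower (0.794% and 0.813% of all), and 10 of the 72 called by fold were among them in the same direction while 2 of the 72 changed sign; by −log10 p 16 of the 72 kept their call. The part of the short lists in the result was not tested, and the median change of all members, -1.39 points by fold, was 0.19 by summit reads. The count became 1 without WT-FOXA1 DMSO replicate 1, 0 without its replicate 2, 130 without WX-02-23 replicate 1 and 45 without its replicate 2; with 1 library left in a group, that library is assumed to vary like the other groups.

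Besides the chromosome 7 and chromosome 2 regions given above, chr8:18422417-18422776 went from 4.79 and 6.21 in DMSO to 48.2 and 52.5 with WX-02-23 (44.8 ± 5.55, adjusted p = 0.00808, limma). Its summit held 30 and 33 reads in DMSO and 33 and 33 with WX-02-23, over a local background of 4.38 and 4.65 and of 2.85 and 3.02 reads. Over all members the treated libraries had a median of 18 and 19 summit reads against 24 and 24 in DMSO. Their background, used as a relative depth, was not lower, at 0.903 and 1.256 reads against 0.869 and 0.844. At chr9:139660912-139661246 the change from 6.08 and 3.96 to 27.9 and 27.0 (22.5 ± 2.96, adjusted p = 0.00808, limma) came with 34 and 32 summit reads in DMSO and 33 and 33 with WX-02-23. Neither passed by summit reads (adjusted p = 0.199 and 0.367, limma). Both regions named here among the 32 called lower had fewer summit reads with WX-02-23, a larger fall than that of the median over all members. The percentile of chr1:231617009-231617461 went from 81.7 and 77.7 to 24.3 and 12.6 (-61.2 ± 7.83, adjusted p = 0.00808, limma), with 37 and 30 reads becoming 14 and 13. At chr8:76395486-76395960 the percentile went from 99.01 and 93.0 to 44.2 and 35.0 (-56.4 ± 7.63, adjusted p = 0.00808, limma) with 39 and 31 reads becoming 16 and 15. Both passed by summit reads as well. In parental cells the last region did not move, with 97.8, 99.1 and 90.3 in DMSO and 86.4, 98.3 and 98.98 with WX-02-23 (-1.18 ± 3.66).

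In the C258A-FOXA1 line WX-02-23 called no member (0% of all shared regions in each direction). At an unadjusted p under 0.05 limma found 438 members (7.83%, against 7.54% of all), the rank by −log10 p called 1, and the rank by summit reads called 10 higher and 1 lower (0.245% and 0.0891% of all). Without C258A-FOXA1 WX-02-23 replicate 2 the fold rank called 2. The difference between the lines was tested directly, as the change upon WX-02-23 with WT-FOXA1 minus that with C258A-FOXA1, and no member passed (0% of all shared regions in each direction), nor by −log10 p or by summit reads. At an unadjusted p under 0.05 there were 515 members (9.21%, against 7.97% of all), and without WT-FOXA1 WX-02-23 replicate 1 or 2 the test called 2. Its median SE was 14.5 points, so that only large differences could pass with 2 libraries a group. Of the 40 members called higher in the WT-FOXA1 line 36 changed upward in the C258A-FOXA1 line (median 3.22 points), and of the 32 called lower 23 changed downward (median -10.4).

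Dox changed the rank of few narrow regions in the WT-FOXA1 line. No engineered library had Dox without an inducible form of FOXA1, so that Dox itself and the induction of FOXA1 cannot be told apart. Against the same line without Dox, 5 members (0.0894%) ranked higher and 3 (0.0536%) lower, where 0.134% and 0.0279% of all shared regions did. By summit reads the numbers were 15 and 2 (0.579% and 0.0474% of all), by −log10 p 10 and 2 (0.368% and 0.0251%), and on normal scores 12 and 2 (0.259% and 0.0306%). The lists without Dox were shorter, as given above, and their part in these counts was not tested. The total of 8 became 2 and 1 without Dox replicate 1 and 2 in DMSO, and 4 without no-Dox replicate 2. The smallest p was that of chr1:33232775-33233235, at percentiles of 2.74 and 6.76 without Dox and 87.2 and 75.6 with Dox (76.6 ± 7.02, adjusted p = 0.00193, limma). Its summit went from 16 and 19 reads to 70 and 62. With WX-02-23 or PladB the Dox-treated WT-FOXA1 libraries stayed at 91.8 and 85.6, and at 70.03 and 66.1, and the C258A-FOXA1 line with Dox lay between 58.9 and 82.0. In parental cells the same region was at 18.6 to 27.8 in DMSO and at 83.7, 60.9 and 75.03 with WX-02-23 (49.96 ± 8.32, adjusted p = 0.0122, limma), while WX-02-43 gave 23.3 to 28.6.

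At chr15:56210063-56210501 Dox raised the percentile from 25.7 and 36.4 to 85.2 and 93.0 (58.1 ± 9.33, adjusted p = 0.0354, limma), and WX-02-23 in the presence of Dox brought it to 41.4 and 40.8 (-48.0 ± 9.33, adjusted p = 0.0332, limma). In the C258A-FOXA1 line it stood at 69.6 and 61.2 in DMSO and at 70.8 and 85.4 with WX-02-23 (12.7 ± 9.33, adjusted p = 0.811, limma). At chr7:111593696-111594082 Dox took it from 4.31 and 2.99 to 47.7 and 45.2 (42.8 ± 6.65, adjusted p = 0.0293, limma; 0.254 by summit reads) and WX-02-23 to 11.6 and 17.6 (-31.9 ± 6.65, adjusted p = 0.0433, limma). These 2 comparisons share the DMSO libraries with Dox, so that a high value there alone would give both changes. The parental DMSO values of the 2 regions were 51.6, 88.2 and 90.04, and 21.6, 12.8 and 3.80. WX-02-23 with C258A-FOXA1 changed the chromosome 7 region by 37.9 ± 6.65 points (adjusted p = 0.189, limma). The difference between the lines was -69.8 ± 9.41 there and -60.7 ± 13.2 in the chromosome 15 region (adjusted p = 0.0835 and 0.325, limma). It uses the same WT-FOXA1 DMSO libraries.

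The 3 regions called lower with Dox all had a higher local background with Dox, while their summits went different ways. At chr4:11844261-11844663 the percentile fell from 87.3 and 83.9 to 14.7 and 26.1 (-65.2 ± 9.23, adjusted p = 0.0166, limma), while the summit held 35 and 34 reads without Dox and 33 and 40 with it. The local background was 1.40 and 1.41 reads without Dox and 3.62 and 3.87 with it. At chr7:134966284-134966599 the percentile fell from 53.8 and 48.8 to 16.5 and 14.6 (-35.7 ± 4.93, adjusted p = 0.0142, limma), with 32 and 28 reads becoming 39 and 37 over a background that went from 2.04 and 1.78 to 4.30 and 4.24. Ranked by summit reads both changes turned positive, to 0.0348 and 10.2 points, and neither passed (adjusted p = 0.999 and 0.663, limma). At chr12:86773088-86773496 the percentile fell from 47.7 and 51.7 to 9.79 and 1.56 (-44.0 ± 4.91, adjusted p = 0.00422, limma), with 24 and 26 reads becoming 25 and 17 and a background of 1.43 and 1.53 becoming 2.88 and 2.88. It was not called by summit reads (-13.6, adjusted p = 0.615, limma). In all 3 regions the background with Dox was higher in both libraries, and what raised it was not tested.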

How the data were processed

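The 29 lists were deposited per library, so none were pooled; per the submitters' processing notes the tools include Bowtie2 and MACS2 and the build is hg19. The sources used here do not give versions, options or any shift of reads. In each deposited list the authors give, per peak, a fold over local background (a ratio), a −log10 p-value, a −log10 q-value and the summit. All nuclear peaks entered (35 mitochondrial ones were left out), overlapping or touching peaks were merged, and a library held a region with a peak in it. The highest peak by fold stood for a region in each library.

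Folds of different lists are not on one scale, so each library's folds were turned into percentiles among the 35901 shared regions, the same set in every library. limma 3.58.1 (lmFit, contrasts.fit, eBayes with trend; R 4.3.3) was fitted on these, with 11 comparisons. Summit reads k and local background b were recovered by solving fold = (k + 1)/(b + 1) with the Poisson p-value of the peak; they rest on the authors' extension of reads, which is not given, and the counting of duplicates is unknown. The fit and the recovery were tested on simulated data. The other steps used numpy 2.4.6, scipy 1.17.1, pandas 2.3.3 and matplotlib 3.10.9 under Python 3.11.15.

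Members and regions to be named were chosen with earlier results of these data known. Named regions were the 3 highest, lowest, narrowest and steadiest members, the 3 with the tightest and the widest summits, and, per comparison, up to 3 called members each way with the smallest p (2 for lesser comparisons). Replicate numbers did not pair libraries: no correlation of same-numbered libraries passed 0.1 (-0.090 to 0.036). Alternatives were other ranks, the replicate block, stricter peaks, a covered share of 50%, other peaks per region and leaving out each library. Gene names and motifs were not analysed here.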

Additional observations from a re-analysis of the deposited data

How the results depend on the processing

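Over 157 recounts of members called, 100 stayed within 1.5 times the count reported. This total includes the comparisons that called 0 members, where most recounts stayed at 0. It therefore says little on how steady the counts above 0 were. In the order parental WX-02-23, WX-02-23 against WX-02-43, PladB at 10 nM and at 100 nM (parental), WX-02-23 with WT-FOXA1 and with C258A-FOXA1, the counts were 45, 42, 1, 16, 72 and 0, and for Dox 8. Ranked by −log10 p they were 152 and 128 in the parental WX-02-23 comparisons, 22 and 1 in the engineered lines and 12 for Dox. Normal scores gave 74, 70, 0, 16 and 31, and 14 for Dox. Ranks within the cell type gave 65 for both parental WX-02-23 comparisons and 0 for 10 nM PladB. A q-value of 1e-05 or below gave 22, 23, 0, 10 and, for Dox, 4. Covering 50% of a region left 3099 members and gave 7, 10 and 0, with 1 for Dox; fewer regions were tested there. Ranks by summit reads gave 241, 218, 11 for 10 nM PladB, 41, 51, 11 in the C258A-FOXA1 line and 17 for Dox. The replicate block, in which numbers share nothing known, gave 35, 35, 0, 2 and 57, and 5 for Dox.

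Leaving out 1 library gave 18 to 31 members for parental WX-02-23, 15 to 34 for the stereoisomers, 0 to 3 and 0 to 13 for PladB at 10 and 100 nM, 0 to 130 for WX-02-23 in the WT-FOXA1 line, 0 to 2 in the C258A-FOXA1 line, 0 to 2 for the difference between the lines and 1 to 6 for Dox. The number of members was 15211 on parental and 13633 on engineered libraries alone. The median summit SD stayed between 29.01 and 31.2 bp. Of 389 recomputed single changes, 97 lost their call and 2 turned positive (10.2 and 0.0348, both with Dox by summit reads); these are the named regions, and by summit reads 1 other called member changed sign in each parental WX-02-23 comparison and 2 in the WT-FOXA1 line. The cause of these moves was not tested.

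With 2 or 3 libraries a group, ranks in place of counts and median summits of 18 to 33 reads, small shifts could not be detected.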
